A study of Mus musculus with 4 samples.

Results

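The interferon response and the class I antigen-processing genes were followed through single fibroblasts sorted from mouse colon tumours. The set holds 32 named genes, chosen by symbol, of 16305 genes in the deposited tables, and all 32 were detected in each of the 4 tumours. Per the labels, the cells were sorted as cancer-associated fibroblasts (CAFs) from untreated APTKA tumours that had been transplanted orthotopically into the colon of female C57BL6J mice. There was 1 group, tumours 1 to 4, with 1 plate of 384 wells each, and the labels give neither the ages of the mice nor the alleles behind the name APTKA. The title of the series concerns inflammatory fibroblasts and resistance to therapy in rectal cancer, but no sample was treated. Cells were compared with other cells of the same tumours, in groups set by marker genes that hold none of the 32.

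Interferons are secreted in response to viruses and other danger. Type I interferons signal through the receptor Ifnar1 and Ifnar2 to factors that include Stat2 and Irf9 and bind response elements in the promoters of antiviral genes. Interferon gamma, made by lymphocytes, signals through Ifngr1 and Ifngr2 and, by way of Irf1, raises the class I genes. Class I molecules, built from a heavy chain and B2m, display peptides cut by the proteasome on nearly all cells, and so let cytotoxic T cells inspect fibroblasts as well as tumour cells. Many stromal cells keep low interferon-induced genes without any infection.

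The members fall into 5 roles. The factors are Stat2, Irf1, Irf7 and Irf9. The inducible antiviral genes are Isg15, a ubiquitin-like modifier, Usp18, which removes it, the RNA-binding Ifit1, Ifit2 and Ifit3, Rsad2, the antiviral enzyme viperin, Oasl2, the tethering protein Bst2, Xaf1, Ifi35, the nucleic acid sensor Zbp1 and Rtp4. Ifitm1, Ifitm2 and Ifitm3 are membrane proteins that hinder virus entry. Gbp2, Gbp3 and Gbp7 are guanylate-binding GTPases that act on intracellular pathogens, and the chemokines Cxcl9 and Cxcl10 attract T cells through Cxcr3. The antigen-processing arm holds the heavy chains H2-K1 and H2-D1, their partner B2m, the peptide transporter subunit Tap1, the loading factor Tapbp (tapasin) and the immunoproteasome subunits Psmb8, Psmb9 and Psmb10. H2-K1, H2-D1, Tap1, Tapbp, Psmb8 and Psmb9 lie on chromosome 17, in the major histocompatibility region or beside it.

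The promoters below are those of the genes on which the results turn. First come the class I genes and Gbp2, called higher in 1 group of fibroblasts than in the mean of the others. Then follow Cxcl10, Ifit1 and Rsad2, which were high in a few wells. Each run gives the 250 bases before the annotated start, 5′ to 3′ on the strand of the gene, from RefSeq on GRCm38.p6, and H2-K1 is shown for 1 of its 2 annotated starts. Capitals mark matches to the interferon-stimulated response element, searched on both strands as GAAANNGAAA, or to the form with the shorter spacing, GAANNGAAA. The letters of the 2 forms can overlap within a promoter.
B2m, chr2:122147437-122147686, plus strand: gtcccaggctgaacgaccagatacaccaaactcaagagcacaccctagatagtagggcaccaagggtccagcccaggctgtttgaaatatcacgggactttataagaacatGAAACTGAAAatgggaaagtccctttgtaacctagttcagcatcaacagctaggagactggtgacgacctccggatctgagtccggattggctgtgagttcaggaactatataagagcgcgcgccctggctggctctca
H2-K1, chr17:34000348-34000597, minus strand: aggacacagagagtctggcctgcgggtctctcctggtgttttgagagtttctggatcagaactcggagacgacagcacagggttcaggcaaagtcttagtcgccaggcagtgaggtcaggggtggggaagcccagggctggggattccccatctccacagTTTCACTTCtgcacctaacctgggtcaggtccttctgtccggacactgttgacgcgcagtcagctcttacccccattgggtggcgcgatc
H2-D1, chr17:35262844-35263093, plus strand: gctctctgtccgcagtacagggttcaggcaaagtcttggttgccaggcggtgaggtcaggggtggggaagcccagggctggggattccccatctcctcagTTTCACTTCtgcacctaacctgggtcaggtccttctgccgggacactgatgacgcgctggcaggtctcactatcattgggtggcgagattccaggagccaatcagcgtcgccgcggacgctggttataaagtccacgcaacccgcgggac
Gbp2, chr3:142620413-142620662, plus strand: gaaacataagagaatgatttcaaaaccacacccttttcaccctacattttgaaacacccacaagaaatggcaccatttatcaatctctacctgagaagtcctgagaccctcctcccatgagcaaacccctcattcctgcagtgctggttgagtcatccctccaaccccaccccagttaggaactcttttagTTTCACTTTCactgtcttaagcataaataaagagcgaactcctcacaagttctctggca
Cxcl10, chr5:92348890-92349139, minus strand: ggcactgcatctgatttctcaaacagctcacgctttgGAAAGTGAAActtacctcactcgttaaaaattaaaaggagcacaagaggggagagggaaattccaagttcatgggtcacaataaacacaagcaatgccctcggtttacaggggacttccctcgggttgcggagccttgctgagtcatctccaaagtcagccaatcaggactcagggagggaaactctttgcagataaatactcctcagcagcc
Ifit1, chr19:34640639-34640888, plus strand: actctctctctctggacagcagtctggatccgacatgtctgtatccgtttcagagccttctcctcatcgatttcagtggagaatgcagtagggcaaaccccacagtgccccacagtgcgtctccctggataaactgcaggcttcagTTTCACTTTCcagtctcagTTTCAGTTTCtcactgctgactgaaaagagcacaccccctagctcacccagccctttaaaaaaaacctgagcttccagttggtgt
Rsad2, chr12:26456453-26456702, minus strand: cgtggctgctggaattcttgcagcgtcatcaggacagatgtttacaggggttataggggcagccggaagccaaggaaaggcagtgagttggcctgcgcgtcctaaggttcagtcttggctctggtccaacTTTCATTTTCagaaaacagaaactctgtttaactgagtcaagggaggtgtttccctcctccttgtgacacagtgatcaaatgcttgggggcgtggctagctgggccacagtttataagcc
B2m, Gbp2, Cxcl10, Ifit1 and Rsad2 hold the longer form, and Ifit1 holds it at 2 places. H2-K1 and H2-D1 hold the shorter form, just after a run of 47 bases that both promoters share. Of 29 members with a RefSeq window of 300 bases (250 before and 50 after the start), 13 held the longer form, which 3.44% of 32851 windows hold, and 7 held the shorter form, which 7.52% of windows hold. The gamma-activated site, searched as TTCNNNGAA, was in 7 members and in 8.30% of all windows. Either response element was in 7 of 9 antiviral genes, 4 of 5 guanylate-binding and chemokine genes, 2 of 3 Ifitm genes, 3 of 8 antigen-processing genes and 1 of 4 factors, against 10.4% of all windows. A match is a run of letters and was not tested as a binding site.

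Libraries were made by SORT-seq and CEL-Seq2, which count each messenger RNA molecule once by its unique molecular identifier (UMI). Levels are therefore given per molecule, as transcripts per 10000 transcripts of the well or group, with spike-in RNA left out. Of 1536 wells, 740 were kept: 43, 250, 243 and 204 in tumours 1 to 4, with medians of 5552, 8516, 8108 and 9474.5 transcripts. Tumour 1 stood apart, with 44.0% spike-in transcripts against 5.54 to 8.59% in tumours 2 to 4, and with 87 wells over the mitochondrial limit against 5 to 14. Its sequencing run, read from the file names, also differed, so run and tumour 1 cannot be told apart. By their markers 615 wells were fibroblasts (29, 217, 203 and 166), 44 were smooth-muscle-like, 23 pericyte-like and 16 Cajal-like, and 41 were rich in red cell transcripts. The fibroblast markers summed to 410, 546, 527 and 569 per 10000 in the fibroblast wells of tumours 1 to 4. The immune markers summed to at most 0.0935 per 10000 there. The fibroblast markers had also served to name these wells, so their sums cannot test the label of the sort. Whether the smooth-muscle-like, pericyte-like and Cajal-like wells meet that label was not tested.

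In fibroblasts the members were led by class I and Ifitm genes, which made up 87.0% of all member transcripts. B2m had 34.1, 17.6, 13.7 and 18.9 transcripts per 10000 in the fibroblasts of tumours 1 to 4, a mean of 21.1 ± 8.97 (SD, n = 4), and was found in 98.2% of wells (95.4% once each well was thinned to 3000 transcripts, which left 527 wells and dropped 88). H2-D1 had 15.1, 6.38, 6.60 and 8.25. H2-K1 had 14.5, 5.89, 4.84 and 5.83. All 3 were highest in tumour 1, where well 205 alone, a lamina propria fibroblast with 53796 transcripts, held 819 of the 1879 antigen-processing transcripts. Without that well tumour 1 had 25.7 B2m, 10.3 H2-D1 and 8.69 H2-K1 transcripts per 10000. Of its 29 fibroblast wells 10 were lamina propria fibroblasts, against 25 of 217, 30 of 203 and 13 of 166 in tumours 2 to 4. The other 5 genes of the arm were lower: Tapbp averaged 3.22 ± 1.49 (SD, n = 4), and Psmb8, Psmb10, Tap1 and Psmb9 averaged 0.940, 0.635, 0.314 and 0.109.

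Ifitm3 was the steadiest abundant member, with 12.7, 12, 14.2 and 13.2 transcripts per 10000 (13.0 ± 0.914, SD, n = 4) in 96.4% of fibroblast wells, 94.3% when thinned. Ifitm2 averaged 6.75 ± 0.672. Ifitm1 varied more, with 15, 3.92, 6.76 and 4.35 per 10000, and tumour 1 again the highest.

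The induced genes were low. Bst2 led the antiviral group with a mean of 0.661 ± 0.218 per 10000, followed by Oasl2 with 0.615 ± 0.188 (SD, n = 4). Isg15 averaged 0.226 ± 0.116 and had a UMI in 13.2% of wells. Rsad2 was among the rarest, with 0, 0.0584, 0.0284 and 0.123 per 10000 in tumours 1 to 4 and a UMI in 28 wells, 4.55%. Usp18 averaged 0.0731, and the other 7 antiviral genes lay between 0.197 for Ifit3 and 0.387 for Zbp1. Gbp2 averaged 0.877 ± 0.297 and Gbp7 and Gbp3 0.553 and 0.248. Cxcl10 had 0.115, 1.74, 0.681 and 0.842 per 10000 and a UMI in 16.6% of wells, and Cxcl9 was found in 17 wells. Irf1 averaged 1.04 ± 0.182, above Irf9 (0.390 ± 0.0708), Stat2 (0.348) and Irf7 (0.275).

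**Figure D1:**
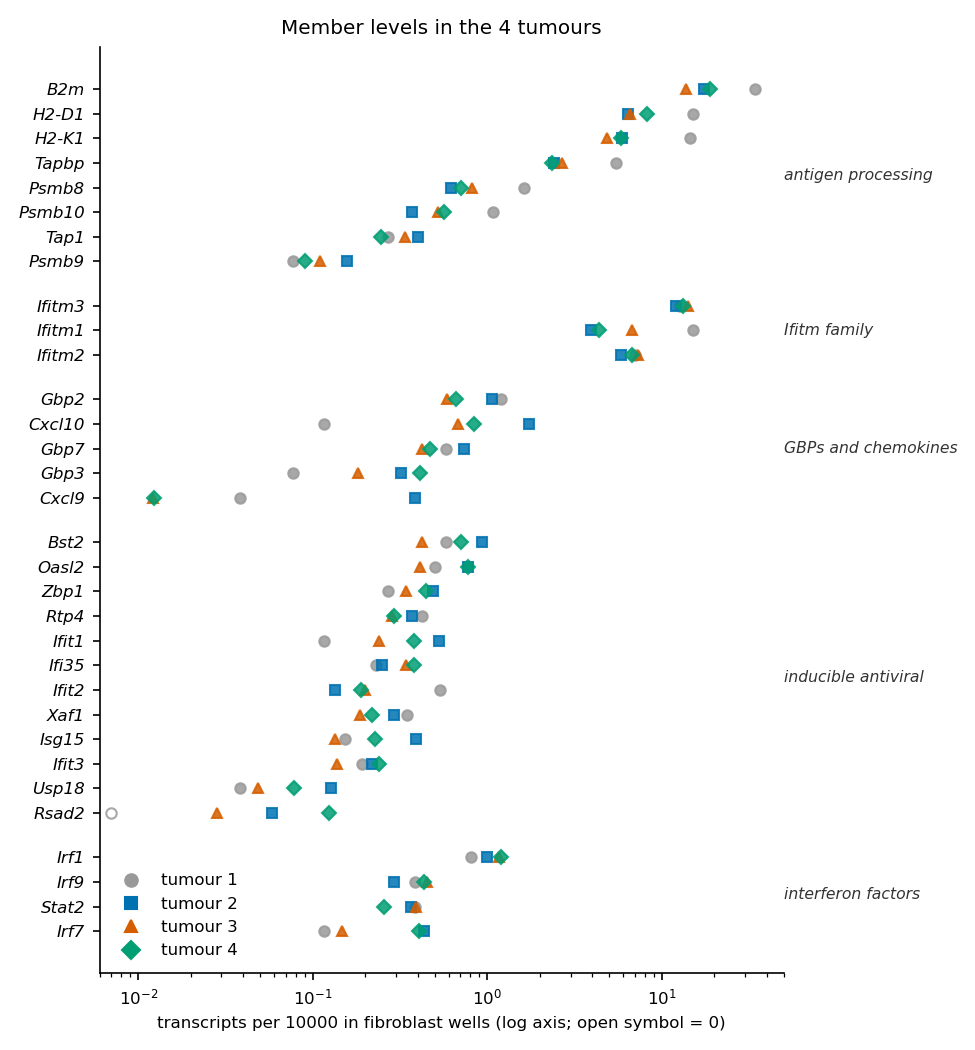
Level of each member in the fibroblast wells of tumours 1 to 4, as transcripts per 10000 on a log axis, with 1 symbol per tumour and an open symbol at the left edge for a level of 0. The antigen-processing and Ifitm genes fill the right side, tumour 1 is highest for B2m, H2-D1, H2-K1, Tapbp and Ifitm1, and Rsad2 was not found in tumour 1.

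Abundant and rare members were spread differently over wells. The 62 fibroblast wells highest for a gene held 30.9% of Ifitm3 and 38.9% of B2m transcripts, but 90.7% of Isg15 and 95.5% of Cxcl10 transcripts. Counts this sparse fall into few wells by sampling alone, and that part was not separated. Over the 527 thinned fibroblast wells, B2m went with H2-D1 (Spearman 0.55) and H2-K1 (0.48). The arm as a whole had 0.32 with the Ifitm family and 0.16 with the antiviral genes. The last value cannot be set beside the others, since 233 of the 527 wells had no antiviral gene. Even the antiviral genes and the factors gave only 0.08. B2m and the collagen gene Col1a1 ran in opposite directions over all these wells (-0.31) and in tumours 2 to 4 (-0.41, -0.27 and -0.31), but not in tumour 1 (0.02). These are descriptions over wells that share libraries, and no p is attached to them.

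Marker lists, 6 in number, were used to split 597 of the fibroblast wells that were not cycling, and each group was compared within tumours on transcripts summed by tumour and group. The counts were tested by edgeR's quasi-likelihood method with the tumour as a block and Benjamini-Hochberg adjustment over 7373 genes, and a gene was called at an adjusted p under 0.05. Of the members 29 could be tested; Usp18, Xaf1 and Psmb9 were too low. Tumour 1 had enough wells only for the lamina propria group, so with the block the tests rest on tumours 2 to 4. The antigen-processing arm stood at 66.1 transcripts per 10000 in lamina propria wells and at 45.9 in telocyte wells, and in the other groups of fibroblasts, cycling ones included, between 21.3 and 35.6.

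**Figure D2:**
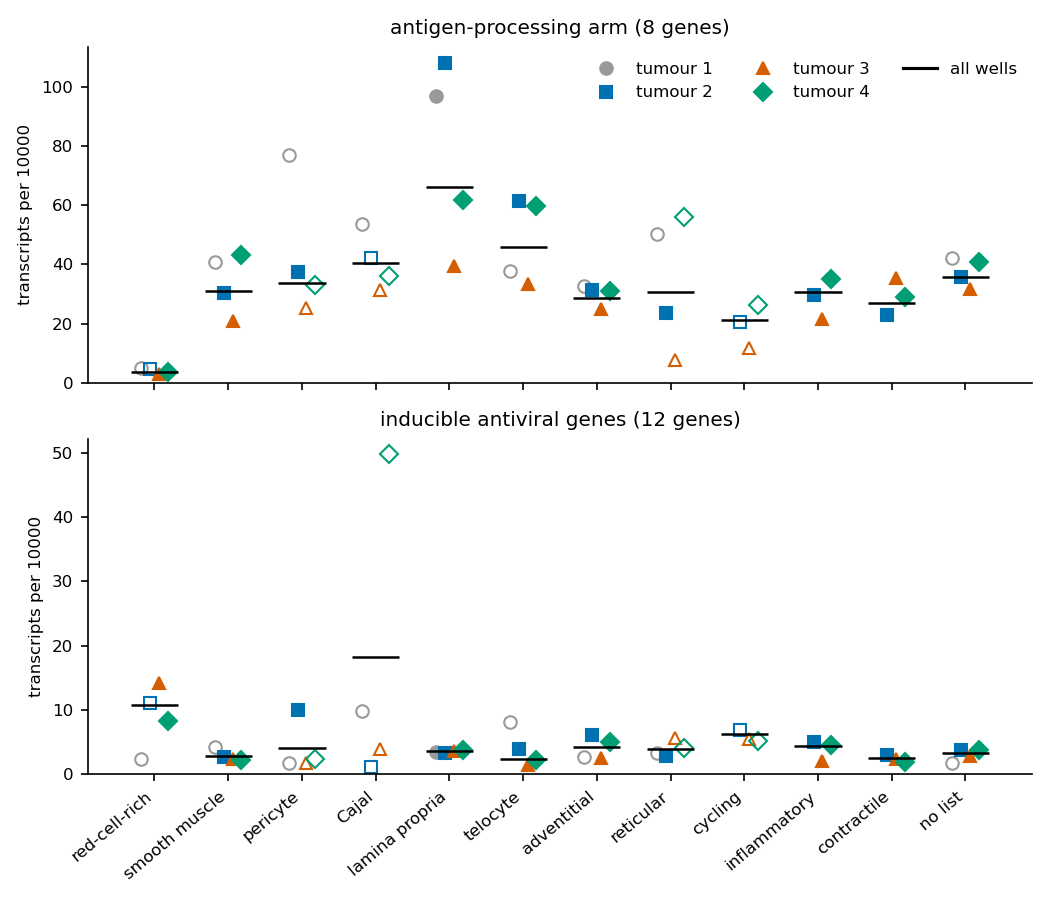
Summed level of the 8 antigen-processing genes (top) and the 12 inducible antiviral genes (bottom) in each marker group, as transcripts per 10000, with 1 symbol per tumour, open where the tumour has fewer than 10 wells of the group, and a bar for all wells of the group. Lamina propria wells are highest for the antigen-processing arm, red-cell-rich wells are lowest for it, and tumour 4 sets the antiviral level of the Cajal-like wells at 49.7.

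Lamina propria fibroblasts, marked by Adamdec1, Wnt4 and Tcf21 among others, had the most members called of the comparisons on sums of at least 10 wells. Of 29 members 9 were higher and none lower, against 4% of all genes tested higher and 2.22% lower. By unadjusted p under 0.05, 11 members passed. The called genes were the class I genes B2m, H2-D1 and H2-K1, Ifitm1, Gbp2, Gbp3, Gbp7, Rtp4 and Cxcl9, the last of which was kept for the test only through this group. The members tested had a median log2 fold change of 0.53, against 0.05 over all genes.

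B2m had 44.9, 59.2, 19.5 and 39.1 transcripts per 10000 in the lamina propria fibroblasts of tumours 1 to 4, against 19.3, 14.8, 12.5 and 17.7 in the other fibroblasts. It was higher in each tumour, and the ranges did not overlap, although the 19.5 of tumour 3 lay close to the 19.3 of the other fibroblasts of tumour 1. The edgeR log2 fold change was 1.22 (SE 0.19, adjusted p = 7.47e-05). H2-D1 had 20.9, 21.3, 8.66 and 10.1 in lamina propria fibroblasts, against 7.13, 5.40, 6.15 and 8.14 in the others, a log2 fold change of 0.92 (SE 0.21, adjusted p = 0.00586 by edgeR). H2-K1 had 20.3, 19, 5.85 and 8.46, against 6.58, 5.02, 4.62 and 5.66, a log2 fold change of 0.91 (SE 0.24, adjusted p = 0.0166 by edgeR). Both heavy chains were higher in each tumour. In tumour 1 well 205 held much of this: without it the lamina propria fibroblasts there had 14.0 H2-D1, 11.1 H2-K1 and 32.9 B2m transcripts per 10000. The 2 heavy chains are near-identical in places, and how shared reads were counted is not given in the sources used here, so their split is uncertain.

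Psmb8 and Psmb10 were not called, with log2 fold changes of 0.87 (adjusted p = 0.0698) and 0.74 (adjusted p = 0.158) by edgeR. Nor were Tap1 (0.53, adjusted p = 0.615) and Tapbp (0.31, adjusted p = 0.550). All 7 tested genes of the arm had positive values, with a median of 0.87. Summed, the arm stood at 96.9, 108, 39.5 and 61.8 per 10000 in lamina propria fibroblasts, against 38.3, 28.9, 27.5 and 35.4 in the others. The median well gave the same order, with 62.6, 95.3, 33.6 and 59.4 against 31.4, 28.3, 23.2 and 27.5. Single wells overlapped widely in each tumour. Without well 205 the lamina propria value of tumour 1 was 66.1.

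**Figure D3:**
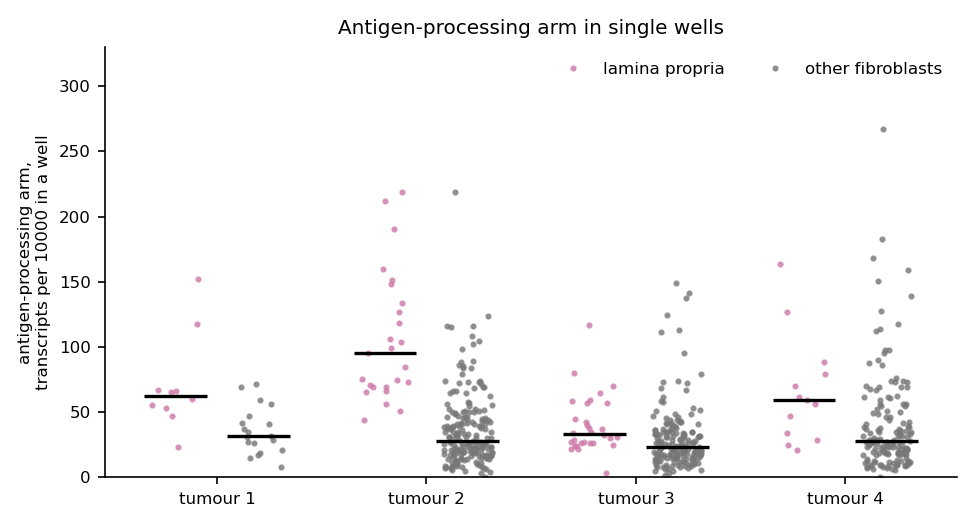
Summed level of the 8 antigen-processing genes in each lamina propria well and each other fibroblast well, by tumour, as transcripts per 10000 of the well, with a bar at the median. The median is higher in lamina propria wells in all 4 tumours (95.3 against 28.3 in tumour 2, 33.6 against 23.2 in tumour 3).

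Ifitm1 had 18.9, 17.1, 15.8 and 11.5 transcripts per 10000 in lamina propria fibroblasts, against 9.69, 3.05, 4.80 and 3.90 in the others. The groups did not overlap, and the log2 fold change was 1.81 (SE 0.24, adjusted p = 6.87e-06 by edgeR). Ifitm3 and Ifitm2 were not called, and Ifitm3 had 13.6, 19.5, 14.0 and 14.3 against 11.3, 11.5, 14.2 and 13.2, with overlapping groups.

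Of the guanylate-binding genes Gbp2 had 1.33, 5.45, 0.456 and 1.98 per 10000 in lamina propria fibroblasts, against 1.0, 0.775, 0.613 and 0.585 in the others, a log2 fold change of 1.91 (SE 0.36, adjusted p = 0.000575 by edgeR). It was higher in 3 of 4 tumours and lower in tumour 3. Well 294 of tumour 4 held 19 of that tumour's 28 transcripts, and without it the lamina propria value was 0.709. Without well 85 the value of tumour 2 was 3.60. Gbp7 was higher in each tumour, with 0.598, 1.39, 0.776 and 1.48 against 0.548, 0.697, 0.346 and 0.410, a log2 fold change of 1.25 (SE 0.30, adjusted p = 0.00805 by edgeR). Gbp3 rested on 2, 22, 12 and 6 transcripts, against 0, 71, 33 and 94, with a log2 fold change of 2.33 (SE 0.66, adjusted p = 0.0282 by edgeR). Its lamina propria levels were 0.133, 1.22, 0.274 and 0.423 per 10000, against 0.0769, 0.320, 0.183 and 0.411 in all fibroblast wells. Tumour 4 thus showed hardly a difference. Well 63 of tumour 2 held 10 of the 22 transcripts, and without it the value there was 0.696. Reads shared among these related genes could not be followed.

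Cxcl9, with a fitted log2 fold change of 5.27, passed the filter on low counts only through the lamina propria sum of tumour 2, so its call carries no weight and no p is given. It had 1, 36, 1 and 0 transcripts in lamina propria fibroblasts, against 0, 75, 2 and 3 in the others. Nearly all came from tumour 2, where well 85 held 24 of the 36 and the cycling well 132 held 61 of the 75. Rtp4 had 0.398, 0.277, 0.730 and 0.845 per 10000, against 0.456, 0.377, 0.188 and 0.257, and so was higher in tumours 3 and 4 only. Its log2 fold change was 1.41 (SE 0.41, adjusted p = 0.0341 by edgeR).

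The inducible antiviral genes did not follow the class I genes. Their summed level was 3.39, 3.33, 3.6 and 3.73 per 10000 in lamina propria fibroblasts, against 3.38, 4.66, 2.60 and 4.07 in the others, and the median log2 fold change of the 10 tested was 0.12. Isg15, with 2, 2, 1 and 1 transcripts against 2, 111, 32 and 54, and Ifit3, with 2, 2, 1 and 1 against 3, 62, 33 and 57, had lower levels in lamina propria fibroblasts in each tumour, and neither was called. None of the 4 factors was called, and Irf1, with a log2 fold change of 0.55, had an adjusted p of 0.433 by edgeR.

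Among receptors and kinases 1 of 11 was called, Ifngr1, a chain of the interferon gamma receptor. It had 1.86, 3.39, 2.35 and 2.82 transcripts per 10000 in lamina propria fibroblasts, against 1.0, 0.692, 0.880 and 0.855 in the others, without overlap, and a log2 fold change of 1.71 (SE 0.24, adjusted p = 1.56e-05 by edgeR). Of 12 tested genes on the list of other interferon-induced genes, 3 were higher and none lower: Gbp4 (2.96), Gbp6 (2.63) and the GTPase Irgm1 (1.25), as log2 fold changes. Gbp4 averaged only 0.0959 per 10000 over the fibroblasts of the 4 tumours. Whether these 3 genes were kept for the test only through this group was not checked. None of the 8 tested genes of other class I factors was called. Of 9 immune markers, 5 transcripts were found in lamina propria wells, 0.0549 per 10000, against 51, or 0.0713, in the other fibroblasts. Ptprc, Lyz2, Tyrobp and Cd79a were at 0 in the lamina propria wells and Cd3e had no row. Endothelial markers had 4 transcripts in lamina propria wells, against 122.

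Tumour 2 carried much of this group's count. Without it 4 members were called, B2m, Ifitm1, Gbp7 and Rtp4, while H2-D1 (adjusted p = 0.707), H2-K1 (0.649), Gbp2 (0.299) and Gbp3 (0.756) missed the threshold of edgeR and Cxcl9 was too low to test. B2m and Ifitm1 were called in all 18 alternatives tried, with log2 fold changes of 0.75 to 1.47 and 1.39 to 2.0.

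**Figure D4:**
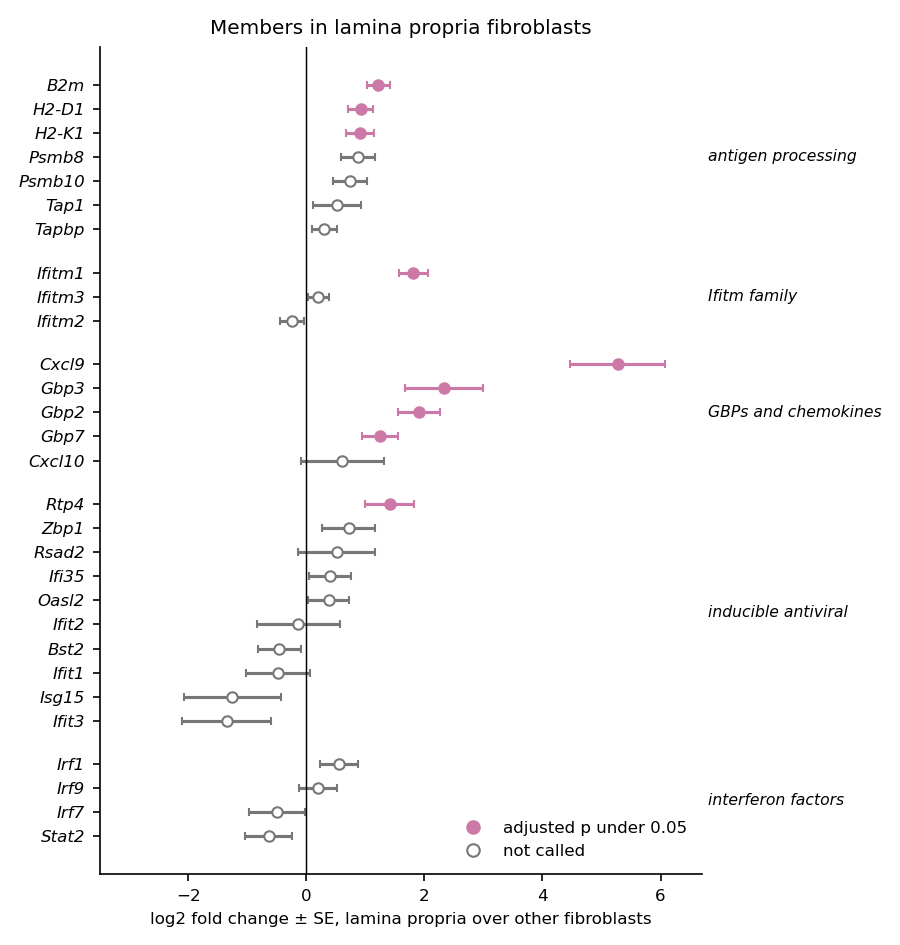
Log2 fold change of each tested member in lamina propria over other fibroblasts, with its standard error as a bar, by role, and filled where the adjusted p of edgeR's quasi-likelihood test was under 0.05. The 9 filled points, Cxcl9 among them, which was kept only through this group, are in the class I, Ifitm, guanylate-binding, chemokine and antiviral groups, and Isg15 and Ifit3 lie furthest left.

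Inflammatory fibroblasts, marked by Il6, Cxcl1 and other cytokine genes, were compared with contractile fibroblasts, marked by Acta2, Tagln and other genes of myofibroblasts. Of 29 members 1 was called higher and none lower, against 2.13% and 0.637% of all genes, with 5 members at an unadjusted p under 0.05. It was Cxcl10, with 0.511, 4.02 and 0.480 transcripts per 10000 in inflammatory fibroblasts of tumours 2 to 4, against 0.188, 0.0403 and 0.0873 in contractile ones. The groups did not overlap, and the log2 fold change was 3.98 (SE 1.05, adjusted p = 0.0311 by edgeR). Well 244 of tumour 3 held 71 of that tumour's 81 transcripts, and without it the value was 0.573. The call was lost in 6 of 18 alternatives, among them the fits without tumour 3 or tumour 4.

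The antiviral genes summed to 4.95, 2.0 and 4.53 per 10000 in inflammatory fibroblasts, against 3.05, 2.38 and 1.89 in contractile ones, and none of 10 was called. The median log2 fold change of these 10 was 0.87, against -0.03 over all genes. The antigen-processing arm stood at 29.8, 21.7 and 35.2, against 22.8, 35.3 and 29.0, overlapping and in mixed order, with no gene called. Of the other interferon-induced genes 1 of 12 was called, Ifi27l2a, with 4.55, 4.16 and 3.56 per 10000 against 0.970, 1.41 and 1.34 (log2 fold change 1.88, adjusted p = 0.00528 by edgeR). No list of receptors, sensors or other class I genes had a call.

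Adventitial fibroblasts, marked by Pi16, Cd34 and Dpp4 among others, had 2 members higher and none lower than the other fibroblasts, against 2.86% and 1.04% of all genes. Ifit1 had 1.04, 0.314 and 0.460 per 10000 in adventitial fibroblasts of tumours 2 to 4, against 0.460, 0.212 and 0.350 in the others (log2 fold change 1.44, SE 0.35, adjusted p = 0.0127 by edgeR). It was higher in each of the 3 tumours, and the groups overlapped. Rsad2 rested on 5, 1 and 21 transcripts, against 12, 6 and 9 (log2 fold change 2.32, SE 0.66, adjusted p = 0.0407 by edgeR), and 16 of the 21 were in well 194 of tumour 4. It was kept for the test only through the red-cell-rich sums. The highest adventitial level, 0.333 per 10000 in tumour 4, lay under the filter's limit of 0.446, so no weight is put on its call. Neither Ifit1 nor Rsad2 was called once the 5 wells described below were left out. The antigen-processing arm had no call here.

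Telocyte fibroblasts, marked by Bmp5, Bmp7 and Sox6 among others, had 1 member higher and none lower, against 4.94% and 3.26% of all genes. Ifitm1 had 7.92, 7.83 and 11 per 10000 in tumours 2 to 4, against 3.74, 6.61 and 3.93 in the other fibroblasts, with no overlap (log2 fold change 0.83, SE 0.27, adjusted p = 0.0479 by edgeR). It missed the threshold without tumour 2 and without tumour 4. The antigen-processing arm stood at 61.5, 33.3 and 59.6, against 32.6, 29.1 and 35.5, and no gene of it was called. Ifi27l2a was lower (log2 fold change -1.69, adjusted p = 0.00461 by edgeR). The class II gene H2-Ab1 was called higher on 9, 3 and 3 transcripts against 19, 4 and 3. Whether it passed the filter on low counts only through the telocyte sums was not checked, so no weight is put on that call.

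Smooth-muscle-like cells had 3 members lower than fibroblasts and none higher, against 5.64% lower and 5.86% higher among all genes. Ifitm2 had 3.22, 4.17 and 2.51 per 10000 in the smooth-muscle-like cells of tumours 2 to 4, against 5.80, 7.36 and 6.77 in fibroblasts (log2 fold change -1.18, SE 0.23, adjusted p = 0.000591 by edgeR). Ifitm3 had 8.68, 10.5 and 11.1, against 12, 14.2 and 13.2 (log2 fold change -0.73, SE 0.20, adjusted p = 0.0154 by edgeR). Tapbp had 1.61, 1.70 and 1.76, against 2.41, 2.68 and 2.33 (log2 fold change -0.94, SE 0.28, adjusted p = 0.0251 by edgeR). None of the 3 overlapped between the groups. With the size factors of DESeq2, which moved the median log2 fold change of all genes to 0.29, only Ifitm2 was called. Also lower were Socs3 (log2 fold change -1.50), an inhibitor of cytokine signalling, the kinase Jak1 (-1.23) and the chaperones Calr (-0.89) and Pdia3 (-0.85), as 2 of 11 receptors and kinases and 2 of 8 other class I genes.

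Reticular, cycling, pericyte-like and Cajal-like wells were too few for sums of 10 wells in 2 tumours. They were tested on sums of at least 5 wells, a limit added after the data were seen, over 5471 genes and 30 members. Reticular fibroblasts, marked by Cxcl13 and Ccl19 among others, had no member called by edgeR, against 1.43% of genes higher and 0.238% lower, none at an unadjusted p under 0.05 and none by DESeq2. Pericyte-like cells had 1 member lower and none higher, against 4.9% and 5.15% of genes. It was Ifitm1, with 0.833, 0.946, 3.27 and 2.25 per 10000 in pericyte-like cells of tumours 1 to 4, against 15, 3.92, 6.76 and 4.35 in fibroblasts (log2 fold change -1.58, adjusted p = 0.0310 by edgeR). The groups did not overlap, although tumours 1 and 3 had only 1 and 4 pericyte-like wells. Only tumours 2 and 4, with 10 and 8 such wells, entered the test of Ifitm1. It missed the threshold without tumour 2 and without tumour 4.

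Cycling fibroblasts had 3 members higher and 1 lower, against 3.18% and 1.54% of genes. Ifitm1 was the lower one, with 0.662, 2.86 and 1.31 per 10000 in cycling fibroblasts of tumours 2 to 4, against 4.41, 6.88 and 4.65 in the others (log2 fold change -2.36, adjusted p = 0.00118 by edgeR). The groups did not overlap, although tumour 3 had only 2 cycling wells, too few to enter the test. Cxcl9, Cxcl10 and Isg15 were the higher ones, with log2 fold changes of 4.62, 2.59 and 2.22, and 298 of the 302 Cxcl10 transcripts of tumour 2 were in well 132. None of these 3 was called without the 5 wells described next, or without tumour 2, and Cxcl9 would not have passed the filter on low counts without the cycling sums.

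Cajal-like cells, marked by Kit and Ano1 among others, had 12 members higher and 1 lower, against 4.48% and 7.06% of genes. Higher were Irf9, Stat2, Irf7, Oasl2, Xaf1, Ifit1, Ifit2, Ifit3, Isg15, Rsad2, Gbp7 and Cxcl10, and the sensors Ddx58 and Ifih1 were higher with them. The antiviral genes summed to 9.86, 1.14, 3.94 and 49.7 per 10000 in the Cajal-like cells of tumours 1 to 4, against 3.38, 4.58, 2.78 and 4.05 in fibroblasts. Tumour 4 set these calls: without it none of the 12 passed, and well 242 there held 152 of its 170 antiviral and all 107 of its Cxcl10 transcripts. Tumour 4 without that well had an antiviral level of 7.70. Ifit2 and Xaf1 would not have passed the filter on low counts without the Cajal sums, so their calls carry no weight. H2-D1 was lower, with 6.79, 5.70, 4.79 and 4.96 against 15.1, 6.38, 6.60 and 8.25 (log2 fold change -1.23, adjusted p = 0.0449 by edgeR), a call lost in 8 of 15 alternatives.

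Strong expression of many induced genes at once was a property of few wells. Over the 12 antiviral, 3 guanylate-binding and 2 chemokine genes, 17 in all, the median well had 3 detected, and 46 of 699 wells had 10 or more. The 5 highest of those were chosen by level and are given as a description. Well 242 of tumour 4, Cajal-like, with 10881 transcripts, had 280 per 10000 in 15 of the 17 genes, with Cxcl10 at 98.7 and Ifit1 at 33.2. Well 244 of tumour 2, pericyte-like, had 120 in 13 genes. Well 132 of tumour 2, cycling, had 79.4 in 16 genes. Well 194 of tumour 4, adventitial, had 77.4 in 15 genes, and well 127 of tumour 3, on no list, had 69.6 in 10. They came from 3 tumours and 5 groups. Well 132 was very deep, with 79342 transcripts, and alone held 10.1% of all transcripts of the 17 genes; wells that hold 2 cells were not sought. The antigen-processing arm stood at 38.6, 102, 33.3, 24.5 and 141 per 10000 in wells 242, 244, 132, 194 and 127. All fibroblast wells together had 34.7.

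**Figure D5:**
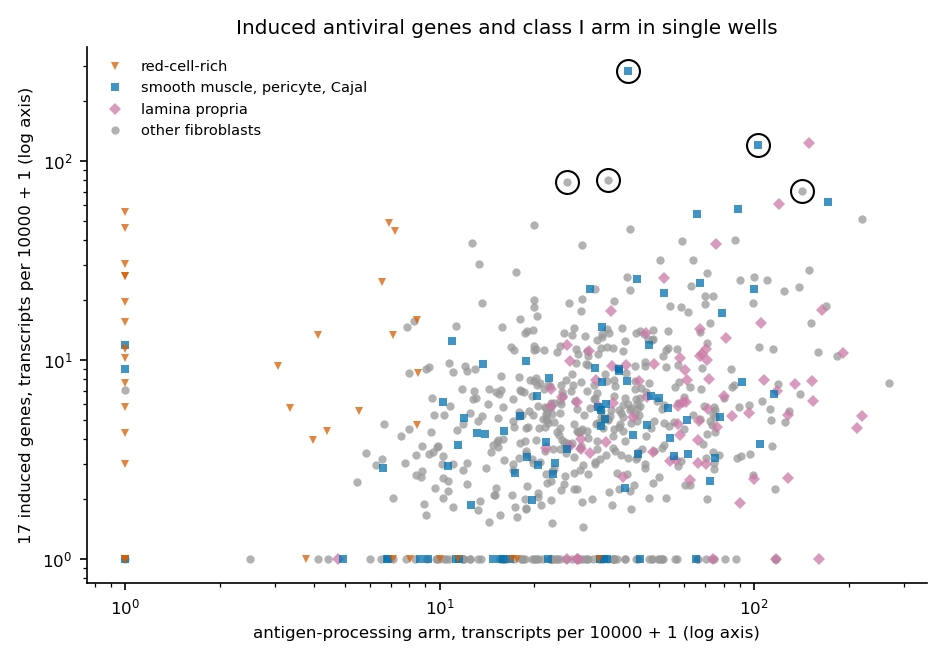
Each well's summed level of the 17 induced genes against that of the 8 antigen-processing genes, as transcripts per 10000 plus 1 on log axes, with the 5 wells of the text ringed. The ringed wells lie high on the vertical axis at ordinary class I levels or above, lamina propria wells lie to the right, and red-cell-rich wells lie to the left.

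After thinning, 3 or more antiviral genes were found in 44 of 527 fibroblast wells, 8.35%. The share was 14.6% of inflammatory wells and 6.49% of contractile wells, and 5 of 15 Cajal-like wells reached it. These shares are over wells and were not tested between tumours.

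Red-cell-rich wells were kept apart. Haemoglobin and other red cell genes made up 72% of their transcripts, and their median depth was 2403 transcripts. They had 2 members higher (Rsad2 and Isg15) and 3 lower than fibroblasts, against 1.53% and 3.45% of all genes. Rsad2 was kept for the test only through these wells, so of the higher members only Isg15 can be set beside the share of all genes. Only tumours 3 and 4 had 10 or more such wells, and the median log2 fold change over all genes was -4.82 by edgeR and -0.19 by DESeq2's own test, so the fitted values of this comparison depend on the method.

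Rsad2, rare in fibroblasts, was the member most abundant relative to fibroblasts. It had 1, 8, 62 and 34 transcripts in the red-cell-rich wells of tumours 1 to 4, against 0, 17, 7 and 30 in all fibroblast wells. That was 9.11 per 10000 against 0.0669, a ratio of 136 (95% interval 97.1 to 193, counting error only), and 23 of 41 wells against 28 of 615 had a UMI. The red-cell-rich wells with a UMI were 1 of 2, 3 of 9, 11 of 16 and 8 of 14 in tumours 1 to 4. Pooled over tumours, the shares were 56.1% of red-cell-rich and 4.55% of fibroblast wells, although the fibroblast wells were deeper. After thinning, 6 of 8 red-cell-rich wells and 5 of 527 fibroblast wells had it. The gene passed the filter on low counts only through the red-cell-rich sums, so its call by edgeR, with a fitted log2 fold change of 9.60, carries no weight and no p is given. With red cell genes left out of the totals the ratio was 486 (347 to 687).

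Isg15 had 13 transcripts in the red-cell-rich wells, against 205 in fibroblast wells, a ratio of levels of 4.44 (2.32 to 7.76), and was called higher by edgeR (log2 fold change 5.38, SE 0.89, adjusted p = 0.000124). Without tumour 3 it missed the threshold. Isg20, an RNA-degrading exonuclease on the list of other interferon-induced genes, had 140 transcripts, a ratio of 31.5, and a log2 fold change of 6.56 (adjusted p = 1.06e-15 by edgeR). Few other members were found, but these wells held only 32286 transcripts outside the red cell genes. Of the members 11 were at 0 in these wells, among them Ifit3, Usp18, Bst2 and Cxcl10. With red cell genes left out of the totals, Cxcl10 stood at 1.09 per 10000 in fibroblast wells. That lay just above the floor of 0.929 set by 3 counts over the group. The 95% interval of its ratio, 0 to 1.05 by counting error only, included no difference. Well 132 alone held 298 of its 883 fibroblast transcripts, so no bound is drawn for it. The other 10 members at 0 had fibroblast levels below that floor, so their zeros set no bound either. Ifit1 and Oasl2 had 2 transcripts each. The erythroid gene Alas2, a marker of the group, stood at 139 per 10000 in the 23 wells with Rsad2 and at 90.3 in the 18 without it.

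The class I genes ran the other way. B2m had 3.59, 2.38, 1.0 and 2.48 transcripts per 10000 in the red-cell-rich wells of tumours 1 to 4, against 34.1, 17.6, 13.7 and 18.9 in fibroblasts, and the whole arm had 41 transcripts in 41 wells, 3.56 per 10000 against 34.7. With red cell genes left out of the totals, the arm stood at 12.7 in the red-cell-rich wells, against 34.7 in fibroblasts, and B2m at 6.81 against 17.3. B2m (log2 fold change -1.57, adjusted p = 0.0156), H2-D1 (-1.86, 0.0483) and Ifitm3 (-1.55, 0.00741) were called lower by edgeR. None of these 3 calls held with the size factors of DESeq2 or with its test, nor without tumour 3 or tumour 4. Immune and endothelial markers were at 0 in these wells.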

How the data were processed

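The deposited values are expected counts, transcripts per gene and well that the authors corrected for saturation of the UMIs (all values lie within 0.00498 of the correction of a whole UMI number from a pool of 4096). BWA and mm10 are named in the submitters' processing notes; their versions, the counting of shared reads and the gate of the sort were not given in the sources used here. Wells with at least 1000 transcripts outside the spike-ins and at most 30% mitochondrial transcripts were kept. No doublet caller was run, since 1 cell was meant per well. Red-cell-rich wells had at least 100 red cell transcripts per 10000; smooth-muscle-like wells had 3 markers and at least 20 per 10000, and pericyte-like and Cajal-like wells 3 markers and at least 15. Other wells with fewer than 3 fibroblast markers stayed unnamed, wells with 3 cycling markers were called cycling, and the rest took the list with the highest score past 0.5 SD and 2 markers, or no list. Of 597 wells scored, 100 lay within 0.25 SD of that limit and 234 passed it on a further list. The scoring rule was set after marker values were seen.

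Expected counts were summed per tumour and group (at least 10 wells), rounded, and tested jointly by edgeR 4.0.16 (TMM, filterByExpr, quasi-likelihood, tumour as block, R 4.3.3, limma 3.58.1), against contractile wells or the mean of the other fibroblast groups. DESeq2 1.42.0 was an alternative. The pairing is by plate: groups of 1 tumour came from the same plate, so the tumour was the block. Tables were made with Python 3.11.15, numpy 2.4.6, pandas 2.3.3 and scipy 1.17.1, and drawn with matplotlib 3.10.9. The test was checked on simulated counts. Named in full were the members called in a comparison and the 2 with the highest mean level of each role, and up to 8 called genes of the other lists. Only the members were checked for passing the filter on low counts through a single group. Members and lists were chosen with earlier results of these data known. Whether each tumour had its own mouse is not stated, so p-values measure the spread between these samples only. Intervals and floors (3 counts) cover counting error only. The genes Ifnb1, Ifna4, Ifng, Ifnl2, Ifnl3, Ifi27, H2-T22 and H2-Q7 of the lists were not analysed here.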

Additional observations from a re-analysis of the deposited data

Results flagged for a closer look

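Of 37 sets of 4 tumour levels in fibroblast wells, 5 had 1 tumour far from the other 3. The rule flags about 1 in 20 single sets by chance. The sets are not independent, since the sums of the 5 roles hold the same genes, so the count is not weighed against chance. In 4 of the flagged sets tumour 1 was the highest: the antigen-processing arm (72.2 transcripts per 10000), H2-K1 (14.5), Tapbp (5.44) and Ifit2 (0.538). The arm lay almost exactly at the limit of the rule. Without well 205 tumour 1 had 51.3 for the arm, 8.69 for H2-K1 and 3.64 for Tapbp. Tumour 1 also had the most spike-in RNA and another sequencing run. Its mix of groups differed too. Lamina propria wells, the group highest for the arm, were 10 of its 29 fibroblast wells. In tumours 2 to 4 they were 25 of 217, 30 of 203 and 13 of 166. The part of spike-in, run and mix in the levels of tumour 1 was not tested. The fifth was Cxcl9, at 0.383 in tumour 2, where well 132 held 61 of its transcripts.

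The 113 wells over the mitochondrial limit, which no comparison used, still held member transcripts above the floor of 3 counts. They had 17.6 transcripts per 10000 of the antigen-processing arm, 9.58 of the Ifitm family, 2.37 of the antiviral genes, 2.19 of the factors and 1.70 of the guanylate-binding and chemokine genes. Of these wells 87 were in tumour 1.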

How the results depend on the processing

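Counts of members called depended on the processing more than the leading genes did; the causes were not tested beyond what each alternative changes. B2m and Ifitm1 in lamina propria fibroblasts and Ifitm2 in smooth-muscle-like cells were called in every alternative run. The 9 lamina propria calls were 4 to 9 without single tumours, 6 under DESeq2, and 7 without the tumour as a block. Leaving out the block, which the shared plate calls for, gave 0 for the single call of inflammatory over contractile fibroblasts, 1 for the 2 adventitial calls, 0 for the telocyte call and 7 for the 12 Cajal calls.

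Inflammatory over contractile had 3 higher with no filter and with only the 2 groups fitted, and 0 to 1 without single tumours. The adventitial 2 were 1 with DESeq2 size factors and with fewer groups fitted, 0 under DESeq2, with sums of at least 5 wells and without the 5 wells richest in induced genes, and 1 to 3 without single tumours. Its 0 lower were 1 under DESeq2, no filter, fewer groups, at least 3000 transcripts, at most 15% mitochondrial and a list limit of 1 SD, and 0 to 1 without single tumours. The telocyte call was 0 at 15% mitochondrial and 0 to 2 without single tumours. The smooth muscle 3 were 1 with DESeq2 size factors or DESeq2, 7 with no filter, 6 at 15% mitochondrial and 1 to 3 without single tumours. The red-cell-rich 2 higher were 1 to 2 without single tumours; its 3 lower were 0 with DESeq2 size factors or DESeq2, 1 at 1 SD and 0 to 3 without single tumours.

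With sums of 5 wells, the cycling 3 higher were 0 without the 5 wells, 1 under DESeq2, 5 with no filter or fewer groups and 0 to 5 without single tumours, and its 1 lower was 2 in those 4 settings and 0 to 1 without single tumours. Pericyte higher was 1 with DESeq2 size factors or no filter and 0 to 1 without single tumours; its 1 lower was 0 with DESeq2 size factors or 1 SD, 2 without the 5 wells, at 3000 transcripts or 15% mitochondrial, and 0 to 1 without single tumours. Cajal higher was 21 under DESeq2 and 0 to 13 without single tumours; its 1 lower was 2 with no filter, 0 with DESeq2 size factors, DESeq2, whole UMIs, Rn45s and mitochondrial genes left out, 3000 transcripts or 1 SD, and 0 to 2 without single tumours. Without single tumours, 5 Cajal genes reversed, all without tumour 4: log2 fold changes ran from -6.81 to 5.85 for Cxcl10, from -4.96 to 4.23 for Ifit2, from -4.77 to 2.77 for Irf7, from -3.48 to 5.21 for Rsad2 and from -0.27 to 2.79 for Gbp7. Where a fit leaves 1 sum of a group, that sum is assumed to vary like the others. DESeq2 size factors moved the median log2 fold change of all genes from 0.03 to 0.18 for telocyte, from -0.09 to 0.08 for pericyte and from -0.24 to 0.56 for Cajal wells; the DESeq2 test moved it from -4.82 to -0.19 for red-cell-rich wells. Without Rn45s and mitochondrial genes in the totals, mean levels were 2.57 for factors, 4.65 for antiviral genes and 33.7 for Ifitm genes. Leaving out tumours gave 1.98 to 2.18, 3.4 to 4.0 and 24.8 to 29.1 for these 3 roles, 2.10 to 2.88 for guanylate-binding and chemokine genes, and 33.5 to 47.6 for the antigen-processing arm.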
